A study of Macaca mulatta with 27 samples.

Results

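The mitosis genes are a list of 41 genes whose products drive or carry out cell division, of which 39 were found by symbol among the 17967 gene symbols of the count tables and are described here in rhesus monkey pluripotent stem cells (PSCs). KIF4A and NCAPH were not analysed here. The 39 genes were sorted by role into 9 groups, from the cyclins and phosphatases that start mitosis to the proteins that split the cell in the end.

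Cells enter mitosis when cyclin A and cyclin B activate the kinase CDK1, which CDC25 phosphatases switch on and the polo and Aurora kinases assist. Condensins then compact the chromosomes, kinesins build the spindle, kinetochores attach each chromosome to it, and the spindle checkpoint holds the cell until all are attached. The anaphase-promoting complex next destroys cyclin B and securin, the chromosomes part, and the midzone and the contractile ring divide the cytoplasm. Most of these genes are transcribed late in the cycle under FOXM1, B-MYB, and the MuvB complex, so in a bulk sample their mRNA follows both how many cells are dividing and how much mRNA each of them holds.

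The study asked why primate PSCs brought from the primed to the naive state colonize host embryos poorly. To characterize cells after culture protocols meant for that change, RNA was sequenced in bulk in 27 libraries. All groups derive from LyonES-tGFP-(S3), a single clone of a rhesus embryonic stem cell line that carries tauGFP, driven by the ubiquitous CAG promoter, and the tamoxifen-inducible fusion STAT3-ER T2, so the primed cells carry both transgenes too. There were 6 libraries of primed cells and 3 of each of 7 protocols. These were TL2i and TL-CDK8/19i (labelled TL-CDK8i), the media LCDM (EPS) and t2iLGöY, 4i/L/b, and both NHSM-v and E-NHSM. TL2i cells received tamoxifen, LIF, and inhibitors of MEK and GSK3β, and TL-CDK8/19i cells received tamoxifen and LIF with CNIO-47799, an inhibitor of CDK8 and CDK19, in place of the other inhibitors. The other 5 protocols were run without tamoxifen, which leaves STAT3-ER T2 inactive, in media described elsewhere for each protocol. Primed cells were passaged mechanically in clumps and all reprogrammed cells as single cells after trypsin or TrypLE, so protocol and passaging cannot be told apart. The labels do not say that libraries of a group came from separate cultures, and p-values then measure only the spread between these libraries.

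Total counts ranged from 7111886 to 20760914 per library, with a median of 12201171, and 3 counts correspond to between 0.145 and 0.422 CPM, the count scaled to a library total of 1000000. Every one of the 39 genes was well above that level, the lowest count of any of them in any library being 148, so all 39 passed the filter on low counts in every comparison. Levels below are CPM after TMM scaling, each compared only with the same gene in other libraries. A gene is called lower or higher where edgeR's quasi-likelihood test gives a Benjamini-Hochberg adjusted p under 0.05 over all genes tested. The 7 comparisons with primed cells share the same 6 primed libraries and are not independent of one another. In bulk RNA, fewer dividing cells and less mRNA per dividing cell cannot be told apart. The paper measured DNA replication in a separate assay, by uptake of the label EdU. It reports a larger share of EdU-positive cells after the TL2i, t2iLGöY, and 4i/L/b protocols than in primed cells. Uptake in these cells fell once they were dissociated. In the same protocols more mitosis genes were called lower than higher, as given below. How the EdU result relates to these mRNA levels was not tested.

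Markers were checked against the label of PSCs, since the protocols differed widely in them. The summed level of 10 pluripotency markers was 8680 to 10190 CPM in primed and 9918 to 10010 CPM in E-NHSM libraries, but 3237 to 4215 CPM in TL-CDK8/19i, 1286 to 1542 CPM in TL2i, 646 to 687 CPM in LCDM (EPS), and 291 to 319 CPM in NHSM-v, 4i/L/b, and t2iLGöY libraries as one range. NANOG was at or under 3 counts in every library of NHSM-v, 4i/L/b, t2iLGöY, and LCDM (EPS) cells, where the label is not borne out by that marker. The sum of 10 fibroblast markers was 1250 to 2549 CPM in primed cells, 483 to 526 CPM in E-NHSM, 901 to 1146 CPM in LCDM (EPS), 3332 to 6165 CPM in TL2i, 3540 to 4186 CPM in t2iLGöY, 8322 to 8905 CPM in NHSM-v, 8921 to 11513 CPM in TL-CDK8/19i, and 11998 to 15584 CPM in 4i/L/b cells. LUM, DCN, and MGP, markers of fibroblasts, were at 0 in all libraries of primed, E-NHSM, and t2iLGöY cells. The sum of 10 neuron markers was 326 to 434 CPM in primed cells, 256 to 296 CPM in E-NHSM cells, and between 629 and 4902 CPM in the other 6 groups, being highest in t2iLGöY (2948 to 3283 CPM) and LCDM (EPS) (4470 to 4902 CPM). Against primed cells, 10 of 10 pluripotency markers were lower in 5 protocols, 9 of 10 in LCDM (EPS) cells, and 3 of 10 in E-NHSM cells, where 4 were higher. Fibroblast markers gave 8 higher calls of 9 tested in TL2i and 4i/L/b, with 1 lower in each, 8 and 0 lower of 9 in NHSM-v, 7 and 0 of 9 in TL-CDK8/19i, 3 and 2 of 7 in t2iLGöY, 2 and 4 of 9 in LCDM (EPS), and 0 and 6 of 7 in E-NHSM cells. Neuron markers gave 8 higher and 1 lower of 10 in NHSM-v, 8 and 2 of 10 in 4i/L/b, 7 and 2 of 10 in TL2i, 9 and 1 of 10 in t2iLGöY and in LCDM (EPS), 6 and 0 of 9 in TL-CDK8/19i, and 2 and 3 of 8 in E-NHSM cells. These marker levels differed among the groups whose mitosis genes are described next, and their part in those results was not tested.

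The summed level of the 39 genes was lower in every library of 6 protocols than in any primed library, whereas TL2i cells overlapped primed cells. The sums were not tested, and abundant genes weigh most in them, such as TOP2A and CENPF with primed means of 1017 and 972 CPM. The summed level of the 39 genes was 8734 ± 526 CPM (SD, n = 6) in primed cells, 8206 ± 616 CPM (n = 3) in TL2i, 7502 ± 176 CPM (n = 3) in E-NHSM, 7471 ± 79.9 CPM (n = 3) in LCDM (EPS), and 7256 ± 297 CPM (n = 3) in TL-CDK8/19i cells. It was 6003 ± 231 CPM (n = 3) in t2iLGöY, 5267 ± 229 CPM (n = 3) in 4i/L/b, and 4956 ± 104 CPM (n = 3) in NHSM-v cells. The primed libraries spanned 8198 to 9630 CPM and overlapped only those of TL2i cells, which spanned 7675 to 8881 CPM. With libraries scaled by their totals alone, the sum was 8632 ± 629 CPM (n = 3) in TL2i against 8456 ± 402 CPM (n = 6) in primed cells, so the order of these means turned. The NHSM-v libraries (4872 to 5072 CPM) all lay below the 4i/L/b libraries (5087 to 5525 CPM), and both lay below those of t2iLGöY (5832 to 6265 CPM), whereas the E-NHSM (7305 to 7644 CPM), LCDM (EPS) (7408 to 7561 CPM), and TL-CDK8/19i (6933 to 7517 CPM) libraries overlapped one another.

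**Figure D1:**
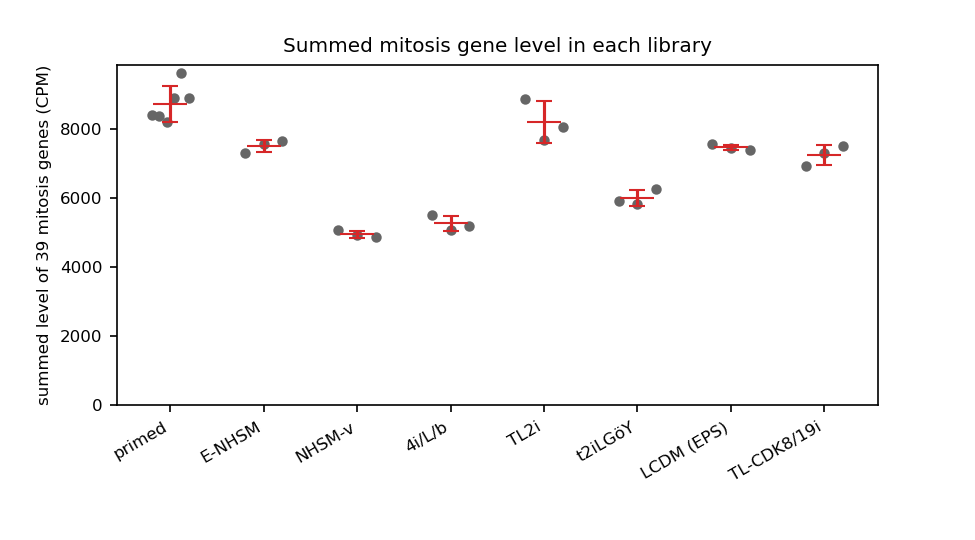
Summed level of the 39 mitosis genes in CPM (vertical axis) in each of the 27 libraries by group (horizontal axis), with grey points for libraries and red bars for the mean and 1 SD. Of the 3 TL2i libraries, 1 is inside the primed range of 8198 to 9630 CPM and 2 are below it, and the NHSM-v and 4i/L/b libraries, at 4872 to 5525 CPM, are the lowest.

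In NHSM-v cells 36 of the 39 genes were called lower and 1 was called higher, where 30.6% of all genes tested were lower and 28% higher. The counts were the same size in 4i/L/b cells, with 36 lower and 2 higher against 29% and 26.6% of all genes. In t2iLGöY cells 29 were lower and 2 higher, against 27.2% and 27.1%. TL-CDK8/19i cells had 22 lower and 2 higher genes, against 23.8% and 22.3%, and LCDM (EPS) cells had 19 lower and 4 higher, against 28.9% and 28.2%. The share called lower was closest to that of all genes in TL2i cells, with 15 lower and 5 higher against 25.2% and 25.6%, and in E-NHSM cells, with 12 lower and 0 higher against 15.1% and 11.1%. At an unadjusted p under 0.05, 1 of the 39 genes was higher in E-NHSM cells by edgeR, and DESeq2 called 0 higher. The E-NHSM count fell to 8 lower and 1 higher with upper-quartile scaling or with library totals alone. Counted in either direction, the calls were 37 in NHSM-v (58.6% of all genes), 38 in 4i/L/b (55.6% of all genes), 31 in t2iLGöY (54.3% of all genes), 23 in LCDM (EPS) (57.1% of all genes), 24 in TL-CDK8/19i (46.1% of all genes), 20 in TL2i (50.7% of all genes), and 12 in E-NHSM (26.2% of all genes) cells, close to the share of all genes in LCDM (EPS), TL2i, and E-NHSM cells.

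All libraries of a protocol lay below the primed range for 13 genes in TL2i (22.7% of all genes), 18 genes in TL-CDK8/19i (20% of all genes), 33 genes in NHSM-v (26.8% of all genes), 20 genes in LCDM (EPS) (26.1% of all genes), 33 genes in 4i/L/b (25.5% of all genes), 11 genes in E-NHSM (14.8% of all genes), and 27 genes in t2iLGöY (25.1% of all genes) cells. They lay above it for 5 in TL2i (28.1%), 3 in TL-CDK8/19i (26.1%), 1 in NHSM-v (28.7%), 4 in LCDM (EPS) (29.3%), 3 in 4i/L/b (30.2%), 1 in E-NHSM (14.6%), and 2 in t2iLGöY (26.7%) cells, so the share below exceeded that of all genes in each protocol and the share above was under it.

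The median log2 fold change of the 39 genes against primed cells was -0.82 in NHSM-v, -0.80 in 4i/L/b, -0.59 in t2iLGöY, -0.34 in TL-CDK8/19i, -0.25 in LCDM (EPS), -0.17 in E-NHSM, and -0.12 in TL2i cells, where the median of all genes tested lay between -0.02 and 0.07. In TL2i cells that median was 0.0057 when libraries were scaled by their totals alone, a scaling that put the median of all genes at 0.19. It was -0.17 without TL2i library 1, -0.065 without TL2i library 3, -0.051 against the primed libraries of letter J alone, -0.25 against letter K alone, -0.075 with upper-quartile scaling, and -0.071 with at least 10 counts in every library. Most single changes were moderate. A call with an absolute log2 fold change of at least 1 was made for 16 genes in NHSM-v and 13 in 4i/L/b cells, all lower, for 9 in t2iLGöY cells, 8 of them lower, for 4 in LCDM (EPS) and 4 in TL-CDK8/19i cells, 3 lower in each, for 3 in TL2i cells, all higher, and for 0 in E-NHSM cells. Of all genes tested, such calls lower and higher were made for 14.8% and 17.2% in LCDM (EPS), 9.39% and 14.8% in TL2i, 5.73% and 3.36% in E-NHSM, 13.8% and 17.7% in t2iLGöY, 6.69% and 12.7% in TL-CDK8/19i, 12.5% and 16.4% in 4i/L/b, and 16.8% and 17.5% in NHSM-v cells.

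**Figure D2:**
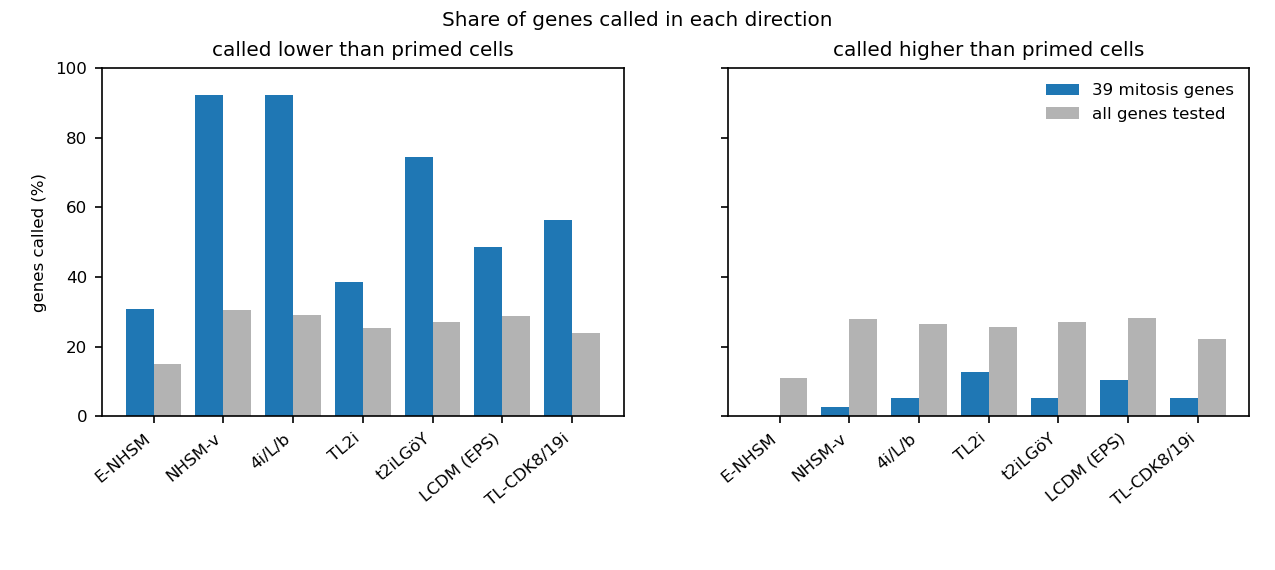
Percentage of genes called lower (left) or higher (right) than primed cells at an adjusted p under 0.05 (vertical axes) in each protocol (horizontal axes), in blue for the 39 mitosis genes and in grey for all genes tested. In each of NHSM-v and 4i/L/b 36 of 39 mitosis genes were lower, and in all 7 protocols the blue bar is above the grey bar on the left and below it on the right.

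Over the 7 comparisons, 185 of 273 gene and protocol pairs were called, 169 of them lower and 16 higher. Of the 185 calls, 25 were lost when some 1 library was left out, 20 against the primed libraries of letter J alone, 3 against letter K alone, and 15 with library totals alone. Each of the 39 genes was called in at least 1 protocol, and 33 were called only in the lower direction in these comparisons. ANLN, CCNA2, and KIF23 were lower in all 7 protocols, and CCNB1, CDC20, PTTG1, SMC2, TTK, UBE2C, KIF20A, and NUF2 in 6. The 16 higher calls fell on 6 genes, CDC25B, PRC1, CENPE, CDCA8, INCENP, and CDK1, of which the last 4 were also called lower in another protocol.

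**Figure D3:**
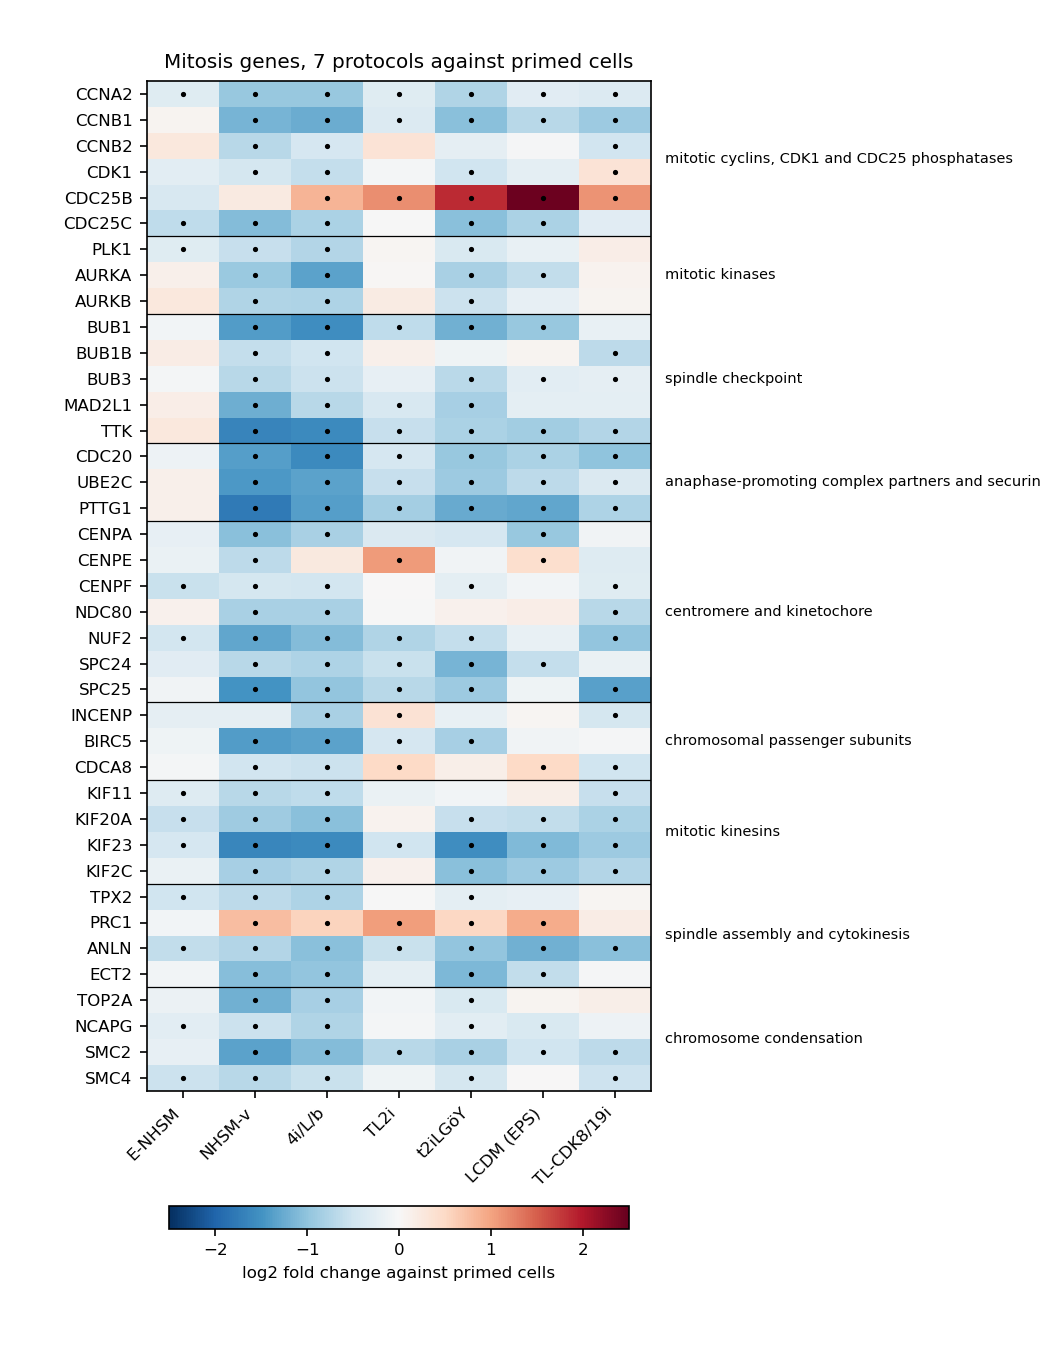
Log2 fold change against primed cells (colour, blue lower and red higher) of the 39 mitosis genes (rows, ordered by role) in the 7 protocols (columns), with a black dot where the adjusted p was under 0.05. The NHSM-v and 4i/L/b columns are blue with dots in 36 of 39 rows each, and CDC25B and PRC1 stand out as red rows with 5 dots each.

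Among the 6 genes that start mitosis, CCNA2 was called lower in 7 protocols, CCNB1 in 6, and CCNB2 in 3, and CDC25B was called higher in 5. CCNA2, cyclin A2, the CDK partner of S phase and early mitosis, had a lowest, median, and highest level of 190.1, 206, and 226 CPM in primed libraries. Its 3 libraries were at 162, 164, and 179 CPM in E-NHSM, 121, 96.8, and 109 in NHSM-v, 113, 111, and 107 in 4i/L/b, and 189, 151, and 166 in TL2i cells. They were at 107, 124, and 129 CPM in t2iLGöY, 168, 167, and 173 in LCDM (EPS), and 162, 163, and 182 in TL-CDK8/19i cells. No library of any protocol reached the primed range, although the highest TL2i library came within 1 CPM of it. The log2 fold change was -0.95 (SE 0.10, adjusted p = 7.6e-07) in NHSM-v and -0.95 (SE 0.08, adjusted p = 4.8e-07) in 4i/L/b cells and only -0.30 in E-NHSM, -0.30 in TL2i, and -0.28 in LCDM (EPS) cells. The last 3 calls were lost without 1 library, at -0.27 without E-NHSM library 1, -0.28 without E-NHSM library 2, -0.22 without TL2i library 2, -0.28 without TL2i library 3, and -0.25 without LCDM (EPS) library 2.

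CCNB1, cyclin B1, which forms the main mitotic kinase with CDK1, was at 311, 325, and 346 CPM (lowest, median, highest) in primed cells and at 353, 354, and 322 CPM in E-NHSM cells, which overlapped. It was at 167, 137, and 143 CPM in NHSM-v, 152, 136, and 140.1 in 4i/L/b, and 289.8, 226, and 259.7 in TL2i cells. The remaining libraries were at 138, 170.1, and 154 CPM in t2iLGöY, 211, 213, and 180.2 in LCDM (EPS), and 171, 189, and 183 in TL-CDK8/19i cells. All 18 libraries of these 6 protocols lay below the primed range. CCNB1 fell by the largest amount in 4i/L/b cells, with a log2 fold change of -1.23 (SE 0.08, adjusted p = 1.5e-08), and by the smallest in TL2i cells, with -0.34 (SE 0.09, adjusted p = 0.0047). CCNB2, cyclin B2, was called lower in 3 protocols, with log2 fold changes of -0.70 in NHSM-v, -0.43 in 4i/L/b, and -0.49 in TL-CDK8/19i cells, though each of the 3 overlapped the primed range. With primed libraries of the letter J alone, the CCNB2 values were -0.39, -0.13, and -0.20, and 0 of the 3 calls held. The 4i/L/b and TL-CDK8/19i calls were also lost without any 1 library of those groups, at -0.39, -0.44, and -0.42 in the former and -0.47, -0.48, and -0.46 in the latter.

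CDK1 itself, the mitotic kinase, was at 97.1, 101, and 119 CPM in primed cells. It was at 72.3, 97.9, and 91.2 CPM in E-NHSM, 89.1, 64.3, and 79.5 in NHSM-v, 71.9, 71.2, and 68.7 in 4i/L/b, and 115, 91.4, and 97.5 in TL2i cells. In t2iLGöY, LCDM (EPS), and TL-CDK8/19i cells its libraries were at 69.8, 70.1, and 75.9, 93.4, 87.9, and 83.3, and 119, 147, and 145 CPM. TL-CDK8/19i cells were the one group above the primed range, and NHSM-v, 4i/L/b, t2iLGöY, and LCDM (EPS) cells were below it. On the log2 scale CDK1 changed by -0.60 (SE 0.10, adjusted p = 0.00013) in 4i/L/b, -0.50 (SE 0.11, adjusted p = 0.0011) in t2iLGöY, -0.45 (SE 0.12, adjusted p = 0.0051) in NHSM-v, and 0.35 (SE 0.10, adjusted p = 0.014) in TL-CDK8/19i cells. The rise in TL-CDK8/19i cells was no longer called without library 2, at 0.30, or without library 3, at 0.33.

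CDC25B, a phosphatase that removes the inhibitory phosphates of CDK1, was called higher in 5 protocols and lower in 0, as was PRC1 among the genes of cytokinesis. It was at 28.5, 39.5, and 46.6 CPM in primed, 22.0, 43.3, and 22.8 CPM in E-NHSM, and 38.5, 54.7, and 45.8 CPM in NHSM-v cells, which overlapped one another. Its libraries were at 74.6, 72.0, and 69.8 CPM in 4i/L/b, 85.5, 85.5, and 90.1 in TL2i, 84.6, 85.0, and 91.6 in TL-CDK8/19i, 137, 142, and 134 in t2iLGöY, and 199.7, 215, and 221 in LCDM (EPS) cells. These 5 groups lay above the primed range in all 15 libraries, TL2i and TL-CDK8/19i cells overlapping each other and the rest of them standing apart. The level was 5.46-fold that of primed cells in LCDM (EPS), a log2 fold change of 2.45 (SE 0.13, adjusted p = 1.2e-09), and 3.62-fold in t2iLGöY, 1.86 (SE 0.14, adjusted p = 2.7e-08). On the log2 scale it changed by 1.16 (SE 0.14, adjusted p = 9.9e-06) in TL2i, 1.12 (SE 0.14, adjusted p = 1.6e-05) in TL-CDK8/19i, and 0.85 (SE 0.14, adjusted p = 0.00019) in 4i/L/b cells, and CDC25B was the gene of the list with the largest called rise in each of these 5 protocols.

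CDC25C, a phosphatase of the same family, moved in the other direction. It was at 50.03, 52.6, and 63.0 CPM in primed cells and 32.7, 35.9, and 36.6 CPM in E-NHSM, 25.7, 24.8, and 27.3 in NHSM-v, 34.5, 31.1, and 30.7 in 4i/L/b, and 54.0, 52.5, and 54.7 in TL2i cells. It was at 32.0, 24.2, and 21.5 CPM in t2iLGöY, 33.3, 32.8, and 28.0 in LCDM (EPS), and 50.2, 45.2, and 43.8 in TL-CDK8/19i cells. TL2i and TL-CDK8/19i libraries overlapped the primed range and those of the other 5 protocols were below it. In E-NHSM cells it had the largest called fall of the list, with a log2 fold change of -0.64 (SE 0.14, adjusted p = 0.0019), and it was lowest in NHSM-v and t2iLGöY cells, with -1.09 and -1.04. LCDM (EPS) cells therefore held 5.46-fold as much CDC25B and 0.58-fold as much CDC25C mRNA as primed cells.

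**Figure D4:**
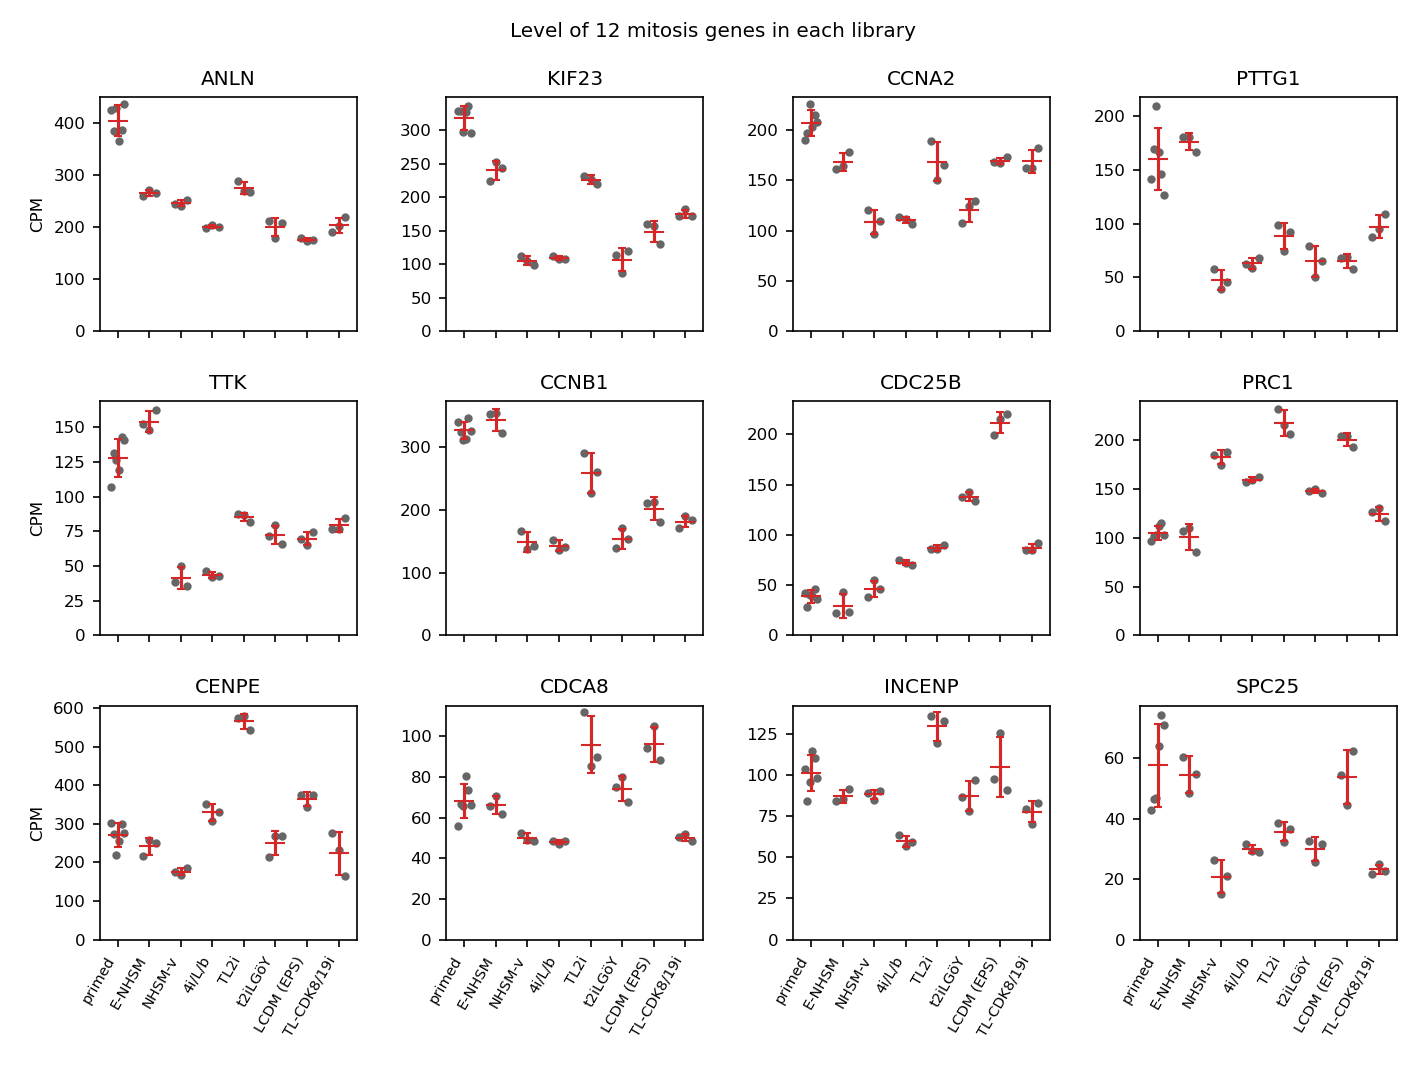
Level in CPM (vertical axes, each starting at 0) of 12 mitosis genes in each of the 27 libraries by group (horizontal axes), with grey points for libraries and red bars for the mean and 1 SD. ANLN, KIF23, and CCNA2 are below the primed points in all 7 protocols, CDC25B and PRC1 are above them in 5 called protocols each, and CENPE, CDCA8, and INCENP peak in TL2i or LCDM (EPS) cells.

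The 3 mitotic kinases PLK1, AURKA, and AURKB were lower in NHSM-v, 4i/L/b, and t2iLGöY cells and not called in TL2i or TL-CDK8/19i cells. AURKA, which matures centrosomes and the spindle poles, had log2 fold changes of -1.34 (SE 0.18, adjusted p = 2.2e-05) in 4i/L/b, -0.92 (SE 0.18, adjusted p = 0.00043) in NHSM-v, -0.81 (SE 0.20, adjusted p = 0.0029) in t2iLGöY, and -0.61 (SE 0.16, adjusted p = 0.0045) in LCDM (EPS) cells. Its primed libraries were widely spread, at 56.1, 90.1, and 102 CPM, and the t2iLGöY and LCDM (EPS) libraries overlapped them, the latter call being lost against the letter J libraries alone (-0.40). PLK1, the polo kinase that acts from mitotic entry to cytokinesis, ranged from -0.73 in 4i/L/b to 0.17 in TL-CDK8/19i cells, the latter not called, and it was the one kinase of the 3 called in E-NHSM cells (-0.30), a call lost without E-NHSM library 1 (-0.29), 2 (-0.28), or 3 (-0.31) and without primed library K1 (-0.26) or K2 (-0.25). AURKB, the catalytic subunit of the chromosomal passenger complex, was at -0.78 in 4i/L/b, -0.75 in NHSM-v, and -0.53 in t2iLGöY cells (-0.42 and not called without t2iLGöY library 2), its other 4 values between -0.21 and 0.26 missing the threshold. Against letter J alone the PLK1 call in E-NHSM cells was lost as well (-0.15).

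Of the 5 spindle checkpoint genes, all 5 were lower in NHSM-v and in 4i/L/b cells, 4 in t2iLGöY, 3 each in TL2i, LCDM (EPS), and TL-CDK8/19i, and 0 in E-NHSM cells. TTK, the checkpoint kinase also known as MPS1, was at 107, 129, and 143 CPM in primed and 152, 148, and 162 CPM in E-NHSM cells. It was at 38.2, 50.2, and 35.6 CPM in NHSM-v, 46.4, 41.8, and 42.6 in 4i/L/b, and 87.3, 86.7, and 82.1 in TL2i cells. It was at 71.9, 79.3, and 66.0 CPM in t2iLGöY, 69.4, 65.1, and 74.4 in LCDM (EPS), and 76.4, 76.6, and 85.0 in TL-CDK8/19i cells. The libraries of 6 protocols lay below the primed range and those of E-NHSM cells above it, the latter with a log2 fold change of 0.27 that was not called (adjusted p = 0.07). The fall was 3.14-fold in NHSM-v cells, a log2 fold change of -1.65 (SE 0.14, adjusted p = 1.1e-07), and 3.02-fold in 4i/L/b cells, -1.59 (SE 0.12, adjusted p = 7e-08). BUB1, a kinase of the unattached kinetochore, showed falls of similar size there, with -1.56 (SE 0.07, adjusted p = 1.2e-09) in 4i/L/b and -1.40 (SE 0.08, adjusted p = 1.1e-09) in NHSM-v cells, and was not called in TL-CDK8/19i cells (-0.19). Its relative BUB1B, the checkpoint protein BUBR1, moved less, from -0.65 in TL-CDK8/19i to 0.19 in E-NHSM cells. MAD2L1, the inhibitor of CDC20, was lowest in NHSM-v cells (-1.23, SE 0.17, adjusted p = 1.7e-05), and BUB3, which carries BUB1 and BUBR1 to kinetochores, was called lower in 5 protocols with values from -0.69 to -0.23. The BUB3 call in TL-CDK8/19i cells was lost under most of the alternatives tried, including leaving out TL-CDK8/19i library 1 (-0.18), 2 (-0.23), or 3 (-0.24).

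The genes around the anaphase-promoting complex had the most uniform falls in number, since all 3 were lower in 6 protocols and 0 were called in E-NHSM cells. PTTG1, securin, the inhibitor of separase, was at 127, 156, and 209 CPM in primed and 181, 181, and 167 CPM in E-NHSM cells. It was at 58.0, 39.3, and 45.3 CPM in NHSM-v, 62.6, 58.6, and 68.4 in 4i/L/b, and 98.3, 74.96, and 92.3 in TL2i cells. In t2iLGöY it was at 79.5, 50.5, and 65.2 CPM, in LCDM (EPS) at 68.5, 69.3, and 57.9, and in TL-CDK8/19i cells at 88.0, 94.8, and 109. E-NHSM libraries lay inside the primed range and all others below it. PTTG1 had the largest called fall of the list in NHSM-v cells, 3.42-fold with a log2 fold change of -1.77 (SE 0.17, adjusted p = 3.5e-07), and also in LCDM (EPS), -1.29 (SE 0.15, adjusted p = 4.9e-06), and TL2i cells, -0.85 (SE 0.15, adjusted p = 0.00032). Primate genomes hold close copies of securin, and how reads shared between such copies were counted is not given in the sources used here.

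CDC20, the activator that directs the anaphase-promoting complex to securin and cyclin B, was at 222, 282, and 353 CPM in primed and 257, 270.1, and 251 CPM in E-NHSM cells. Its libraries were at 115, 95.8, and 121 CPM in NHSM-v, 105, 88.2, and 95.3 in 4i/L/b, and 247, 173, and 215 in TL2i cells. They were at 160.4, 134, and 139 CPM in t2iLGöY, 162, 165, and 161 in LCDM (EPS), and 138, 145, and 157 in TL-CDK8/19i cells. E-NHSM and TL2i libraries overlapped the primed range and the rest did not. It had the largest called fall of the list in 4i/L/b cells, -1.60 (SE 0.13, adjusted p = 2.4e-07), followed by -1.38 (SE 0.13, adjusted p = 3.7e-07) in NHSM-v cells. The fall in TL2i cells, -0.42, was lost without TL2i library 2 (-0.30) or library 3 (-0.43) and against the primed libraries of letter K alone (-0.28).

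UBE2C, the ubiquitin-conjugating enzyme of the same complex, was at 107, 116, and 124 CPM in primed and 114, 125, and 144 CPM in E-NHSM cells, which overlapped. It was at 44.4, 44.8, and 41.7 CPM in NHSM-v, 51.1, 46.1, and 44.9 in 4i/L/b, and 85.6, 72.1, and 77.8 in TL2i cells. It was at 64.6, 61.2, and 56.8 CPM in t2iLGöY, 67.6, 75.1, and 77.1 in LCDM (EPS), and 84.3, 92.2, and 105 in TL-CDK8/19i cells, all below the primed range. The log2 fold change ran from -1.44 (SE 0.11, adjusted p = 2.1e-08) in NHSM-v to -0.36 (SE 0.10, adjusted p = 0.0092) in TL-CDK8/19i cells, the latter call being lost without TL-CDK8/19i library 1, at -0.27.

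The 7 centromere and kinetochore genes were all lower in NHSM-v cells and 6 of them in 4i/L/b cells, and in TL2i cells 3 were lower and 1 higher. NUF2, a subunit of the NDC80 complex that grips spindle microtubules, was at 117, 123, and 133 CPM in primed cells and at 81.5, 93.6, and 93.6 CPM in E-NHSM, 46.1, 51.7, and 55.3 in NHSM-v, 62.3, 47.6, and 69.9 in 4i/L/b, and 87.9, 63.0, and 69.8 in TL2i cells. It was at 87.8, 72.3, and 81.1 CPM in t2iLGöY, 114, 113, and 97.6 in LCDM (EPS), and 59.8, 65.2, and 67.9 in TL-CDK8/19i cells. The libraries of all 7 protocols lay below the primed range, LCDM (EPS) closest to it and not called (-0.19). The log2 fold change was -1.29 (SE 0.11, adjusted p = 6.8e-08) in NHSM-v, -1.08 (SE 0.12, adjusted p = 3.8e-06) in 4i/L/b, -0.99 (SE 0.10, adjusted p = 1.8e-06) in TL-CDK8/19i, and -0.46 (SE 0.10, adjusted p = 0.002) in E-NHSM cells.

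SPC25, another subunit of the NDC80 complex, was at 42.8, 55.3, and 74.4 CPM in primed cells. It was at 60.4, 48.4, and 54.8 CPM in E-NHSM, 26.2, 15.2, and 20.9 in NHSM-v, 31.5, 29.4, and 29.0 in 4i/L/b, and 38.4, 32.2, and 36.6 in TL2i cells. It was at 32.7, 25.6, and 31.6 CPM in t2iLGöY, 54.5, 44.5, and 62.4 in LCDM (EPS), and 21.8, 24.96, and 22.8 in TL-CDK8/19i cells. E-NHSM and LCDM (EPS) libraries overlapped the primed range, and TL-CDK8/19i and NHSM-v cells had the lowest libraries. The log2 fold change of -1.36 (SE 0.20, adjusted p = 6.5e-05) was the largest called fall of the list in TL-CDK8/19i cells, and that of NHSM-v cells was -1.50 (SE 0.23, adjusted p = 5e-05). The primed libraries themselves fell apart by letter, those of letter K being higher than those of letter J by 0.61 on the log2 scale (SE 0.15, adjusted p = 0.036), and against letter J alone the TL2i value was -0.34 and not called. The other subunits, NDC80 and SPC24, were called lower in 3 and 5 protocols. SPC24 was lowest in t2iLGöY cells (-1.17, SE 0.12, adjusted p = 1.3e-06), and NDC80 was near the primed level there (0.10, not called) but lower in TL-CDK8/19i cells (-0.69, SE 0.21, adjusted p = 0.013), overlapping the primed range of 30.9, 48.4, and 64.3 CPM. That NDC80 call was lost without TL-CDK8/19i library 1, at -0.56. It was also lost against letter K alone (-0.45).

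CENPE, the kinesin of the kinetochore that brings chromosomes to the spindle equator, moved in both directions. It was at 219, 275, and 302 CPM in primed cells and at 218, 259, and 249 CPM in E-NHSM, 175, 168, and 185 in NHSM-v, 351, 307, and 331 in 4i/L/b, and 574, 580.1, and 544 in TL2i cells. It was at 214, 268, and 269 CPM in t2iLGöY, 374, 343, and 376 in LCDM (EPS), and 276, 232, and 165 in TL-CDK8/19i cells. TL2i libraries were far above all others, LCDM (EPS) libraries also exceeded the primed range, and NHSM-v libraries lay below it. CENPE was 2.08-fold higher in TL2i cells, a log2 fold change of 1.06 (SE 0.09, adjusted p = 5.2e-07), and changed by 0.43 (SE 0.09, adjusted p = 0.0013) in LCDM (EPS) and -0.65 (SE 0.10, adjusted p = 5.4e-05) in NHSM-v cells. The 4i/L/b libraries were above the primed range too, with a log2 fold change of 0.24 that was not called. CENPF, a large protein of the kinetochore corona, was lower in 5 protocols, most in E-NHSM cells (-0.56, SE 0.07, adjusted p = 1.8e-05), and CENPA, the histone H3 variant that marks the centromere, was lower in NHSM-v (-1.04, SE 0.24, adjusted p = 0.0017), LCDM (EPS) (-0.94, SE 0.22, adjusted p = 0.0023), and 4i/L/b cells (-0.82, SE 0.23, adjusted p = 0.0072), with a wide primed range of 26.0, 45.4, and 51.7 CPM. The CENPF call in t2iLGöY cells (-0.25) was lost without t2iLGöY library 1 (-0.23) or 2 (-0.20), against letter J alone (-0.16), and with totals alone (-0.12), and that in TL-CDK8/19i cells (-0.31) without library 3 (-0.21) and against letter J alone (-0.19). The CENPA call in 4i/L/b cells was lost against letter J alone (-0.59).

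The 3 chromosomal passenger subunits, which hold Aurora B at the centromere and later at the midzone, did not move together. INCENP, their scaffold, was at 84.5, 101, and 115 CPM in primed cells and at 84.4, 85.6, and 91.9 CPM in E-NHSM, 89.3, 85.2, and 90.4 in NHSM-v, 63.5, 56.8, and 59.2 in 4i/L/b, and 136, 119.8, and 133 in TL2i cells. It was at 86.5, 78.4, and 96.9 CPM in t2iLGöY, 97.8, 126, and 91.3 in LCDM (EPS), and 79.7, 70.5, and 83.0 in TL-CDK8/19i cells. TL2i libraries were above the primed range, 4i/L/b and TL-CDK8/19i libraries were below it, and the other 4 protocols overlapped it. INCENP had a log2 fold change of -0.80 (SE 0.11, adjusted p = 4.5e-05) in 4i/L/b, -0.43 (SE 0.12, adjusted p = 0.0072) in TL-CDK8/19i, and 0.35 (SE 0.10, adjusted p = 0.012) in TL2i cells. The TL2i call was lost without library 1 (0.32) or library 3 (0.34), and the TL-CDK8/19i call without library 2 (-0.36). The latter was lost against letter J alone too (-0.32).

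CDCA8, borealin, was at 55.8, 66.4, and 80.4 CPM in primed and 65.9, 70.8, and 61.7 CPM in E-NHSM cells. Its libraries were at 52.6, 48.8, and 48.6 CPM in NHSM-v, 48.7, 47.0, and 48.6 in 4i/L/b, 50.4, 51.8, and 48.3 in TL-CDK8/19i, and 74.8, 80.1, and 67.8 in t2iLGöY cells. They were at 112, 85.6, and 90.0 CPM in TL2i and 94.3, 105, and 88.5 in LCDM (EPS) cells. The last 2 groups lay above the primed range, NHSM-v, 4i/L/b, and TL-CDK8/19i cells lay below it, and E-NHSM and t2iLGöY cells lay within it. Log2 fold changes were 0.50 (SE 0.12, adjusted p = 0.0027) in LCDM (EPS), 0.49 (SE 0.13, adjusted p = 0.005) in TL2i, -0.54 (SE 0.13, adjusted p = 0.0023) in 4i/L/b, -0.49 (SE 0.13, adjusted p = 0.0057) in TL-CDK8/19i, and -0.47 (SE 0.13, adjusted p = 0.0075) in NHSM-v cells. The TL2i call was lost without library 1, at 0.37, and the NHSM-v call against the primed libraries of letter J alone, at -0.31. BIRC5, survivin, behaved otherwise, with -1.39 (SE 0.10, adjusted p = 2.5e-08) in NHSM-v, -1.33 (SE 0.10, adjusted p = 9.1e-08) in 4i/L/b, -0.83 (SE 0.11, adjusted p = 1.2e-05) in t2iLGöY, and -0.42 (SE 0.12, adjusted p = 0.0082) in TL2i cells and values not called in the other 3 protocols, with -0.12 in E-NHSM, -0.10 in LCDM (EPS), and -0.02 in TL-CDK8/19i cells. The TL2i call of BIRC5 was lost without TL2i library 2 (-0.29).

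All 4 genes of the mitotic kinesin group, which does not hold the kinetochore kinesin CENPE, were lower in NHSM-v, 4i/L/b, and TL-CDK8/19i cells. In TL2i cells 1 of the 4 was lower. KIF23, the kinesin of centralspindlin, which bundles the midzone, was at 295, 328, and 337 CPM in primed cells. It was at 224, 252, and 244 CPM in E-NHSM, 112, 105, and 98.3 in NHSM-v, 112, 108, and 107 in 4i/L/b, and 232, 228, and 219.5 in TL2i cells. It was at 114, 87.5, and 119 CPM in t2iLGöY, 159.7, 156, and 130.0 in LCDM (EPS), and 172, 182, and 172 in TL-CDK8/19i cells. All 21 libraries of the 7 protocols lay below the primed range. The t2iLGöY, NHSM-v, and 4i/L/b libraries overlapped one another. KIF23 was 3.08-fold lower in NHSM-v, a log2 fold change of -1.62 (SE 0.09, adjusted p = 5.9e-10), 3.01-fold lower in 4i/L/b, -1.59 (SE 0.08, adjusted p = 1.7e-09), and 2.92-fold lower in t2iLGöY cells, -1.55 (SE 0.11, adjusted p = 1.4e-08), the largest called fall of the list there. The change was -1.10 (SE 0.09, adjusted p = 1.1e-07) in LCDM (EPS), -0.92 (SE 0.08, adjusted p = 5.4e-07) in TL-CDK8/19i, -0.50 (SE 0.08, adjusted p = 1e-04) in TL2i, and -0.42 (SE 0.08, adjusted p = 6e-04) in E-NHSM cells.

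KIF20A, the kinesin that moves the passenger complex to the midzone, was at 176, 204, and 249 CPM in primed and 242, 205, and 209 CPM in TL2i cells, which overlapped. It was at 122, 139.9, and 152 CPM in E-NHSM, 100.5, 113, and 124 in NHSM-v, and 103, 100.3, and 104 in 4i/L/b cells. It was at 146, 119, and 141 CPM in t2iLGöY, 138, 127, and 138 in LCDM (EPS), and 115, 128, and 124 in TL-CDK8/19i cells, and all 18 libraries of these 6 protocols lay below the primed range. Its log2 fold change ran from -1.04 (SE 0.11, adjusted p = 3.2e-06) in 4i/L/b to -0.58 (SE 0.11, adjusted p = 0.00099) in E-NHSM cells. KIF2C, which depolymerizes microtubules at wrongly attached kinetochores, was lower in 5 protocols and lowest in t2iLGöY cells (-1.04, SE 0.10, adjusted p = 7.3e-07). KIF11, which pushes the spindle poles apart, was lower in NHSM-v (-0.70, SE 0.11, adjusted p = 6.4e-05), 4i/L/b (-0.63, SE 0.11, adjusted p = 0.00024), TL-CDK8/19i (-0.57, SE 0.11, adjusted p = 0.00062), and E-NHSM cells (-0.32, SE 0.10, adjusted p = 0.031). The KIF11 call in E-NHSM cells was lost without any 1 of the 3 E-NHSM libraries, at -0.27, -0.30, and -0.37, and without primed library K2 (-0.24) or K3 (-0.31). Against letter J alone it was at -0.20 and not called.

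Among the genes of spindle assembly and cytokinesis, ANLN was lower in every protocol and PRC1 was higher in 5. ANLN, anillin, the scaffold of the contractile ring, was at 364, 405, and 436 CPM in primed cells. It was at 259, 271, and 266 CPM in E-NHSM, 244, 240.4, and 251 in NHSM-v, 199, 203, and 199.6 in 4i/L/b, and 288, 269, and 267 in TL2i cells. It was at 211, 179, and 208 CPM in t2iLGöY, 179, 174, and 175 in LCDM (EPS), and 189.9, 201, and 219 in TL-CDK8/19i cells. The 21 libraries were all well below the lowest primed library, LCDM (EPS) cells being the lowest group on average. The log2 fold change ran from -1.20 (SE 0.08, adjusted p = 1.9e-08) in LCDM (EPS) to -0.56 (SE 0.08, adjusted p = 7.7e-05) in TL2i cells, with -0.61 (SE 0.08, adjusted p = 1.3e-05) in E-NHSM cells.

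PRC1, which crosslinks antiparallel microtubules of the midzone, was at 96.5, 102, and 115 CPM in primed and 107, 109.5, and 85.7 CPM in E-NHSM cells. It was at 185, 174, and 188 CPM in NHSM-v, 157, 159, and 162 in 4i/L/b, and 232, 215, and 206 in TL2i cells. It was at 148, 150.3, and 146 CPM in t2iLGöY, 204, 204, and 193 in LCDM (EPS), and 126, 130.3, and 117 in TL-CDK8/19i cells. The libraries of 6 protocols lay above the primed range, those of TL-CDK8/19i cells only just and with a log2 fold change of 0.19 that was not called, and E-NHSM cells overlapped it. PRC1 was the 1 gene of the list called higher in NHSM-v cells, with 0.77 (SE 0.09, adjusted p = 2.8e-06), and it changed by 1.05 (SE 0.09, adjusted p = 2.6e-07) in TL2i, 0.93 (SE 0.08, adjusted p = 4.1e-07) in LCDM (EPS), 0.56 (SE 0.08, adjusted p = 7.1e-05) in 4i/L/b, and 0.52 (SE 0.09, adjusted p = 0.00021) in t2iLGöY cells. In NHSM-v cells PRC1 thus stood at 1.71-fold and KIF23, its neighbour in the midzone, at 0.32-fold the primed level. ECT2, which switches on RhoA at the ring, was lower in t2iLGöY (-1.11, SE 0.15, adjusted p = 2.1e-05), NHSM-v (-1.07, SE 0.14, adjusted p = 9.4e-06), 4i/L/b (-0.98, SE 0.15, adjusted p = 6.3e-05), and LCDM (EPS) cells (-0.62, SE 0.14, adjusted p = 0.0014), and TPX2, an activator of Aurora A on the spindle, in 4 protocols, with -0.78 (SE 0.11, adjusted p = 2.6e-05) in 4i/L/b, -0.66 (SE 0.10, adjusted p = 3.3e-05) in NHSM-v, and -0.50 (SE 0.09, adjusted p = 0.00057) in E-NHSM cells.

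The 4 genes of chromosome condensation were all lower in NHSM-v, 4i/L/b, and t2iLGöY cells. SMC2, the core ATPase of condensins, was at 225, 263, and 327 CPM in primed and 224, 228, and 243 CPM in E-NHSM cells. It was at 106, 118, and 98.7 CPM in NHSM-v, 136, 124, and 129 in 4i/L/b, and 182, 154, and 160.1 in TL2i cells. It was at 138, 147, and 162 CPM in t2iLGöY, 181, 198, and 189 in LCDM (EPS), and 174, 167, and 184 in TL-CDK8/19i cells. E-NHSM libraries overlapped the primed range at its lower end and those of the other 6 protocols lay below it. SMC2 changed on the log2 scale by -1.34 (SE 0.12, adjusted p = 1.8e-07) in NHSM-v, -1.09 (SE 0.11, adjusted p = 2.5e-06) in 4i/L/b, -0.70 (SE 0.11, adjusted p = 0.00019) in TL2i, and -0.50 (SE 0.11, adjusted p = 0.0014) in LCDM (EPS) cells. Its partner SMC4 changed less, the lowest value being -0.69 in NHSM-v cells, and was not called in TL2i (-0.12) or LCDM (EPS) cells (0.01). TOP2A, the topoisomerase that untangles sister chromatids, was lower in NHSM-v (-1.20, SE 0.10, adjusted p = 1.1e-07), 4i/L/b (-0.82, SE 0.11, adjusted p = 1.8e-05), and t2iLGöY cells (-0.37, SE 0.10, adjusted p = 0.0055), and NCAPG, a condensin I subunit, in 5 protocols, most in 4i/L/b cells (-0.75, SE 0.10, adjusted p = 2.6e-05).

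TL-CDK8/19i and TL2i cells share tamoxifen, LIF, and active STAT3-ER T2 and differ in their inhibitors, and they were compared directly. The part of that exchange in the differences below was not tested. Of the 39 genes, 17 were lower and 5 higher in TL-CDK8/19i than in TL2i cells, where 33.3% of all genes tested were lower and 31.5% higher. Calls in either direction numbered 22 (64.9% of all genes), and the libraries of the protocols did not overlap for 18 genes in the lower direction (34.8%) and 6 in the higher (35.5%). The median log2 fold change of the list was -0.14, and it was -0.060 without TL2i library 1 and -0.26 with library totals alone. CENPE was lowest relative to TL2i cells, at 276, 232, and 165 CPM against 574, 580.1, and 544 CPM, without overlap, a log2 fold change of -1.37 (SE 0.15, adjusted p = 2.8e-06). CDCA8 was at 50.4, 51.8, and 48.3 CPM against 112, 85.6, and 90.0 CPM, also apart, with -0.97 (SE 0.11, adjusted p = 5.3e-06). KIF20A (-0.87, SE 0.09, adjusted p = 2.2e-06), PRC1 (-0.84, SE 0.09, adjusted p = 2.4e-06), KIF2C (-0.82, SE 0.10, adjusted p = 9e-06), CCNB2 (-0.81, SE 0.12, adjusted p = 4.9e-05), INCENP (-0.77, SE 0.10, adjusted p = 1.2e-05), and BUB1B (-0.76, SE 0.09, adjusted p = 7.3e-06) were lower as well. All 4 genes of the mitotic kinesin group were lower in TL-CDK8/19i cells.

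The 5 higher genes were BUB1 (0.45, SE 0.10, adjusted p = 0.0015), BIRC5 (0.42, SE 0.13, adjusted p = 0.012), CDK1 (0.40, SE 0.11, adjusted p = 0.0049), SPC24 (0.40, SE 0.14, adjusted p = 0.024), and ECT2 (0.23, SE 0.09, adjusted p = 0.036). The SPC24 call was lost without TL2i library 2 (0.27), TL-CDK8/19i library 2 (0.36), or TL-CDK8/19i library 3 (0.34), and the BIRC5 call without TL-CDK8/19i library 3 (0.34). The ECT2 call was lost without TL2i library 3 (0.20), TL-CDK8/19i library 2 (0.24), or TL-CDK8/19i library 3 (0.20), and with the replicate block (0.24). With library totals alone the split of the list was 20 lower and 2 higher, and the median of all genes was -0.16. CDC25B (-0.03, SE 0.09) and CCNA2 (-0.03, SE 0.10) were not called. In these cells the fibroblast markers were 8921 to 11513 CPM in TL-CDK8/19i and 3332 to 6165 CPM in TL2i cells and the pluripotency markers 3237 to 4215 CPM and 1286 to 1542 CPM, and their part in the difference was not tested.

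**Figure D5:**
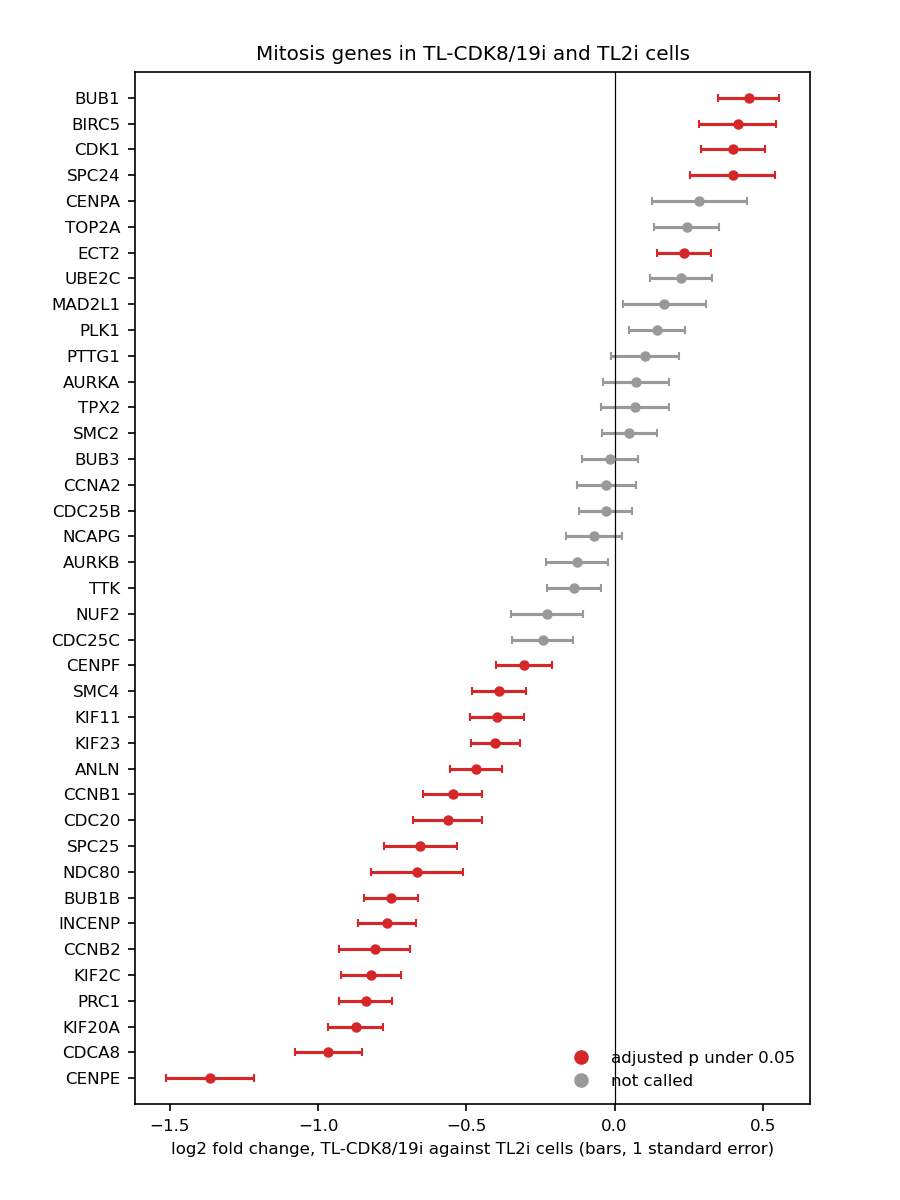
Log2 fold change of TL-CDK8/19i against TL2i cells (horizontal axis) with 1 standard error (bars) for the 39 mitosis genes (vertical axis, ordered by value), in red where the adjusted p was under 0.05 and in grey otherwise. The red points hold 17 genes to the left of 0, from CENPE and CDCA8 at the far left, and 5 to the right of it, from ECT2 to BUB1.

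NHSM-v and E-NHSM are, by their names, versions of one medium, and had the second largest and the smallest number of the 39 genes called against primed cells. In NHSM-v cells 31 of the 39 genes were lower and 3 higher than in E-NHSM cells, with 34.8% of all genes lower and 33.4% higher, and the median log2 fold change was -0.78. Calls in either direction numbered 34 (68.3% of all genes), and the libraries of both did not overlap for 32 genes in the lower direction (37.5%) and 1 in the higher (36.4%). TTK was at 38.2, 50.2, and 35.6 CPM against 152, 148, and 162 CPM, a log2 fold change of -1.90 (SE 0.12, adjusted p = 4.8e-09), and PTTG1 changed by -1.90 (SE 0.12, adjusted p = 3.9e-09). The 3 higher genes were PRC1 (0.85, SE 0.10, adjusted p = 2.1e-06), CDC25B (0.66, SE 0.24, adjusted p = 0.025), and CENPF (0.13, SE 0.06, adjusted p = 0.049). The CDC25B call was lost without E-NHSM library 1 (0.49) or 3 (0.52) or NHSM-v library 2 (0.52) or 3 (0.67), and that of CENPF without library 1 or 2 of either group, at 0.13 and 0.11 for E-NHSM and 0.12 and 0.12 for NHSM-v. Here too the marker lists differed, with 311 to 319 CPM of pluripotency markers in NHSM-v and 9918 to 10010 CPM in E-NHSM cells, and their part was not tested.

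A further 3 comparisons between protocols were chosen after the values had been seen. In 4i/L/b cells 35 of the 39 genes were lower than in TL2i cells and 0 were higher (21.3% of all genes lower and 21.6% higher), the median being -0.71 and all 39 log2 fold changes negative, so that 0 genes were higher at an unadjusted p by edgeR or in DESeq2. INCENP (-1.11, SE 0.09, adjusted p = 2.4e-10) and CDCA8 (-0.99, SE 0.10, adjusted p = 2.4e-08) were among them. Between NHSM-v and 4i/L/b cells, 8 genes were lower in NHSM-v and 5 higher (25.1% and 25%), with a median of -0.07 (-0.022 without 4i/L/b library 1, -0.021 without NHSM-v library 3, -0.12 with upper-quartile scaling, and -0.15 with totals alone), a split that became more one-sided when libraries were scaled by their totals alone (85.7% of the calls lower, against 61.5%). In LCDM (EPS) cells 19 genes were higher than in t2iLGöY cells and 2 lower (15.7% and 16.8%), with a median of 0.23. The last count was 13 higher and 0 lower without LCDM (EPS) library 1.

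The primed columns carry the letters J and K, 3 libraries each, and the comparison of the letters shows how far the list moved within primed cells. In K libraries 2 of the 39 genes were higher than in J libraries, SPC25 and TOP2A (0.34, SE 0.06, adjusted p = 0.0055), and 0 were lower, where 2.03% of all genes were higher, 1.7% lower, and 3.73% called either way. The letters did not overlap for 9 genes higher in K (12.6% of all genes) and 1 lower (10.8%). At an unadjusted p under 0.05 edgeR put 2 of the 39 genes lower and 11 higher in K libraries, and DESeq2 called 0 lower and 3 higher. The SPC25 call was lost without J1 (0.58), J2 (0.63), K1 (0.67), K2 (0.57), or K3 (0.60). Against the K libraries alone the median of the list was lower than against the J libraries alone in each protocol, for example -0.92 against -0.76 in NHSM-v cells and -0.22 against -0.12 in E-NHSM cells.

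Genes that work beside the list were counted in the same way, and the counts stand beside shares of all genes called lower and higher of 28.9% and 28.2% in LCDM (EPS), 25.2% and 25.6% in TL2i, 15.1% and 11.1% in E-NHSM, 27.2% and 27.1% in t2iLGöY, 23.8% and 22.3% in TL-CDK8/19i, 29% and 26.6% in 4i/L/b, and 30.6% and 28% in NHSM-v cells. Some counts were near these shares, such as 4 lower of 16 anaphase-promoting complex genes in t2iLGöY cells, and no list was tested against another. Of 139 such genes found in the tables, of 141 listed in 8 further lists, the 16 subunits and regulators of the anaphase-promoting complex gave 8 lower and 1 higher call in NHSM-v, 6 and 1 in 4i/L/b, 5 and 1 in TL2i, 4 and 2 in t2iLGöY, 4 and 4 in LCDM (EPS), 6 and 1 in TL-CDK8/19i, and 0 and 4 in E-NHSM cells. ANAPC4 was lower in 6 protocols, from -1.24 to -1.95, and higher in E-NHSM cells (0.66). FZR1, the activator CDH1 that takes over from CDC20 at mitotic exit, was higher in 5, from 0.56 in 4i/L/b to 1.25 in NHSM-v cells. Of 14 cohesin and separase genes, which hold and release sister chromatids, 8 were lower and 2 higher in TL-CDK8/19i, 7 and 0 in NHSM-v, 8 and 1 in 4i/L/b, 5 and 2 in t2iLGöY, 5 and 0 in E-NHSM, 4 and 2 in TL2i, and 1 and 7 in LCDM (EPS) cells. STAG2, a cohesin subunit, was lower in all 7 protocols, by log2 values from -0.40 to -1.04, whereas SGO1, shugoshin, which protects centromeric cohesin, was lower in 3, with -1.36 in 4i/L/b, -1.12 in NHSM-v, and -0.61 in TL-CDK8/19i cells.

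The 29 other kinetochore and centromere genes tested were lower for 17 and higher for 1 in NHSM-v, 14 and 2 in 4i/L/b, 10 and 1 in TL-CDK8/19i, 8 and 1 in t2iLGöY, 6 and 3 in TL2i, 4 and 6 in LCDM (EPS), and 2 and 1 in E-NHSM cells. KNL1, the scaffold that recruits the BUB proteins, was higher in 5 protocols, from 0.80 in 4i/L/b to 1.59 in LCDM (EPS) cells, while HJURP, the chaperone of CENP-A, was lower in all 7, from -0.41 to -1.10. CENPU was lower in 6, down to -1.53 in NHSM-v cells. Of the 26 other spindle and cytokinesis genes, 16 were lower and 1 higher in both NHSM-v and 4i/L/b, 13 and 2 in TL-CDK8/19i, 8 and 2 in t2iLGöY, 6 and 1 in E-NHSM, 7 and 9 in LCDM (EPS), and 5 and 10 in TL2i cells. MKI67, the proliferation antigen that coats mitotic chromosomes, was lower in all 7, from -0.29 in LCDM (EPS) to -1.26 in 4i/L/b cells, as was HMMR, a spindle pole protein, from -0.40 to -1.73. PBK, a mitotic kinase, was higher in 5 protocols, up to 1.69 in LCDM (EPS) cells, and lower in E-NHSM cells (-0.73). The 4 other condensin subunits gave 1 lower and 2 higher calls in NHSM-v, 0 and 2 in TL2i, 0 and 3 in LCDM (EPS), 1 and 1 in t2iLGöY, 3 and 1 in TL-CDK8/19i, 1 and 0 in E-NHSM, and 0 in 4i/L/b cells, with NCAPD2 at 0.92 in TL2i cells.

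Upstream of mitosis, 7 regulators of mitotic entry were tested. They gave 4 lower and 0 higher calls in NHSM-v and t2iLGöY, 3 and 0 in TL-CDK8/19i, 3 and 1 in E-NHSM, 4i/L/b, and LCDM (EPS), and 3 and 2 in TL2i cells. WEE1, the kinase that opposes CDC25 on CDK1, was lower in 6 protocols, with -2.59 in t2iLGöY, -2.32 in LCDM (EPS), -1.61 in TL2i, -1.53 in E-NHSM, -0.50 in NHSM-v, and -0.40 in TL-CDK8/19i cells, and higher in 4i/L/b cells (0.38). MASTL, the Greatwall kinase that restrains a phosphatase in mitosis, was lower in 5, down to -1.75 in t2iLGöY cells. CDC25B was higher and WEE1 lower than in primed cells in 4 protocols, TL2i, TL-CDK8/19i, LCDM (EPS), and t2iLGöY, and in 4i/L/b cells both were higher.

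Of 14 transcription factors of the mitotic genes, 4 were lower and 4 higher in NHSM-v, 6 and 4 in 4i/L/b, 5 and 3 in TL2i, 4 and 4 in t2iLGöY, 2 and 5 in LCDM (EPS), 4 and 2 in TL-CDK8/19i, and 3 and 0 in E-NHSM cells. MYBL2, B-MYB, was lower in all 7, from -0.52 in TL-CDK8/19i to -1.79 in t2iLGöY cells. RBL2, p130, a repressor of cell cycle genes in resting cells, was higher in 6, from 0.92 in 4i/L/b to 1.47 in LCDM (EPS) cells. FOXM1, chosen here after its values were seen as the best known of these factors, was not called in NHSM-v (-0.02), 4i/L/b (-0.10), t2iLGöY (-0.10), LCDM (EPS) (0.20), or E-NHSM cells (-0.21), and was higher in TL2i (0.27) and TL-CDK8/19i cells (0.37).

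The 29 S-phase genes, which act before mitosis in the same cycle, were lower in larger shares than all genes in each protocol. They gave 23 lower and 2 higher calls in t2iLGöY, 21 and 2 in NHSM-v, 19 and 1 in 4i/L/b, 17 and 1 in TL-CDK8/19i, 16 and 0 in E-NHSM, 15 and 2 in TL2i, and 13 and 4 in LCDM (EPS) cells. Their median log2 fold change was -0.89 in NHSM-v, -0.84 in t2iLGöY, -0.70 in 4i/L/b, -0.42 in TL-CDK8/19i, -0.38 in TL2i, -0.33 in E-NHSM, and -0.29 in LCDM (EPS) cells. Only in 4i/L/b cells was this median higher than that of the mitosis genes, at -0.70 against -0.80. It was lower in every other protocol, for example TL2i (-0.38 against -0.12), t2iLGöY (-0.84 against -0.59), and E-NHSM (-0.33 against -0.17). These differences were not tested. CCNE1, cyclin E1, was lower in 6 protocols, down to -2.42 in NHSM-v cells, CDC6, which loads the MCM helicase, in 6, down to -1.63, and CCNE2, cyclin E2, was higher in 4, up to 2.05 in LCDM (EPS) cells.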

How the data were processed

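RNA was measured in 27 libraries of rhesus PSCs, 6 primed and 3 of each of 7 protocols. The authors prepared each library from 200 ng of RNA with a NextFlex Rapid Directional kit and sequenced single reads of 75 bases. The deposited values are counts by gene symbol, not normalized and not pooled over libraries. The submitters' processing notes name bcl2fastq, cutadapt, HISAT2, and HTSeq. Their versions, the genome build, the annotation, and the handling of strand and of reads shared between copies of a gene are not given in the sources used here, so no positions or sequences are shown. Columns were matched to groups by their names, with 0 left unmatched. The primed columns carry the letters J and K, which were not assigned to the 2 sets of primed samples in the labels, since the labels' set numbers disagree for 2 samples.

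TMM factors, CPM (counts scaled to the library total), and quasi-likelihood tests came from edgeR 4.0.16 (R 4.3.3, limma 3.58.1). Unless library totals alone are named, CPM, sums, and overlaps of libraries used TMM factors over all 27 libraries. Main tests and fold changes were fitted on the libraries of each comparison's own groups, with TMM factors of those libraries. Ratios of printed CPM can thus differ slightly from the fold changes. The tests followed filterByExpr, with Benjamini-Hochberg adjustment over all genes tested and a threshold of 0.05. Each standard error was derived from the F statistic of its fold change. The members, role groups, and further lists were chosen with earlier results of these data known, and 3 comparisons (4i/L/b against TL2i, NHSM-v against 4i/L/b, and LCDM (EPS) against t2iLGöY), the counts of lower calls alone, the summed level with library totals alone, and the recomputing of each called gene under the alternatives were added after the values were seen. The listed genes SGO1, SGO2, and KNL1 were matched under older symbols, 3 in all.

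Genes are described in every library if called in the same direction in at least 6 of 7 comparisons with primed cells, if they had the largest called rise or fall in a comparison, if they were among the 4 of widest range called both ways, or if they were called in 0 comparisons, which none was. Others are given by counts and up to 3 examples, which was exceeded for some role groups to account for every member. The 36 pairs of libraries within groups differed by more than counting noise, with a chi-square per gene of 3.98 to 29.8, and no library was counted as a copy of another.

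The fitting code was tested on simulated data. In data simulated for NHSM-v against primed cells, edgeR recovered 76% of true absolute log2 changes of 1 and 27% of those of 0.5. False calls made up 8.04% of its calls and 18.8% of those of DESeq2. For TL-CDK8/19i against TL2i cells, edgeR recovered 99% and 54%, with 6.13% false calls, and DESeq2 had 6.32% false calls. Each simulation changed 100 genes by 1 and 100 by 0.5, a far smaller share than was called in the real comparisons. These rates need not hold there. The alternatives were DESeq2 1.42.0, upper-quartile normalization, library totals alone, no filter, at least 10 counts in every library, all 8 groups in one fit, the replicate number as a block, an absolute log2 fold change of at least 1, primed letter J or K alone, and each library left out.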

Additional observations from a re-analysis of the deposited data

Results flagged for a closer look

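INCENP and CDCA8 were singled out because their calls against primed cells ran in opposite directions in protocols that were also compared directly. The direct test also had to be called for a gene to be kept, so its p-values below were part of the choice. INCENP changed by 0.35 in TL2i and by -0.43 in TL-CDK8/19i cells, and the direct log2 fold change of TL-CDK8/19i against TL2i cells was -0.77 (edgeR, adjusted p = 1.2e-05). CDCA8 changed by 0.49 and -0.49 in the same order, with a direct log2 fold change of -0.97 (adjusted p = 5.3e-06). Against primed cells, the INCENP calls in both protocols and the CDCA8 call in TL2i cells were lost when some single library was left out. In 4i/L/b against TL2i cells, a comparison chosen after the values were seen, INCENP was at -1.11 (adjusted p = 2.4e-10) and CDCA8 at -0.99 (adjusted p = 2.4e-08), after -0.80 and -0.54 in 4i/L/b against primed cells. In each of these comparisons the 3 libraries of one protocol were all lower than the 3 of the other. Of all genes, 34.8% were apart in this way with TL-CDK8/19i libraries lower and 35.5% with them higher than TL2i libraries. In 4i/L/b against TL2i cells the shares were 26.6% lower and 25.4% higher. No primed library stood apart from the other 5 in any of 40 values tested, the 39 genes and their sum, by Dixon's test of the highest and lowest sample, where chance marks about 5% of groups.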

How the results depend on the processing

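No gene called in a comparison changed direction under any alternative run. Of 312 such results, 306 stayed called with DESeq2, 300 with upper-quartile normalization, 287 with library totals alone, 307 without the filter, 305 with at least 10 counts in every library, and 299 with the replicate block. Of 310 results, 296 did with all 8 groups in one fit. Of 185 against primed cells, 165 stayed called with primed letter J alone and 182 with letter K alone. Of 2427 values with 1 library left out, 159 were no longer called. Group size and depth limit small changes, and a gene not called is not shown to be unchanged.

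The share of calls that were lower moved from 100% to 88.9% in E-NHSM cells with upper-quartile normalization or totals alone, from 77.3% to 90.9% for TL-CDK8/19i against TL2i with totals, and from 61.5% to 78.6% (upper quartile) or 85.7% (totals) for NHSM-v against 4i/L/b. Counts of calls that moved by over 1.5 times are these. With an absolute log2 fold change of at least 1, genes called (lower) numbered 0 (0) in E-NHSM, 16 (16) in NHSM-v, 13 (13) in 4i/L/b, 3 (0) in TL2i, 9 (8) in t2iLGöY, 4 (3) in LCDM (EPS), and 4 (3) in TL-CDK8/19i cells, 1 (1) for TL-CDK8/19i against TL2i, 14 (14) for NHSM-v against E-NHSM, 5 (5) for 4i/L/b against TL2i, and 0 (0) for NHSM-v against 4i/L/b, LCDM (EPS) against t2iLGöY, and primed K against J. Primed K against J gave 5 calls (1 lower) without the filter, NHSM-v against 4i/L/b gave 7 (5 lower) with all groups in one fit, and lower calls in LCDM (EPS) against t2iLGöY were 1 with DESeq2, 0 with library totals alone, 0 with all groups in one fit, and 1 with the replicate block.

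The median log2 fold change of the 39 genes moved by more than the spread between replicates as follows. In E-NHSM cells it was -0.10 with upper-quartile normalization, -0.086 with library totals, -0.12 with letter J, and -0.22 with letter K. In NHSM-v cells it was -0.76 with J and -0.92 with K. In TL2i cells it was 0.0057 with totals, where the sign changed, and -0.25 with K, and in t2iLGöY cells -0.46 with totals and -0.73 with K. In LCDM (EPS) cells it was -0.21 with DESeq2, -0.13 with totals, -0.22 without the filter, -0.20 with at least 10 counts, and -0.36 with K. In TL-CDK8/19i cells it was -0.29 with DESeq2, -0.32 with totals, -0.29 with at least 10 counts, -0.29 with all groups in one fit, -0.28 with J, and -0.36 with K. Library totals alone put the median of all genes at 0.19 in TL2i, 0.15 in t2iLGöY, 0.15 in LCDM (EPS) cells, and DESeq2 at 0.20 in TL2i, 0.17 in 4i/L/b, and 0.16 in TL-CDK8/19i cells. The cause of these moves was not tested.

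With 1 library left out, the median ranged from -0.17 to -0.065 in TL2i, -0.87 to -0.76 in NHSM-v, -0.28 to -0.22 in LCDM (EPS), and -0.37 to -0.32 in TL-CDK8/19i cells. Genes called ranged from 13 to 20 in LCDM (EPS) against t2iLGöY, of which 0 to 1 were lower, from 1 to 3 in primed K against J, and lower calls from 5 to 8 in NHSM-v against 4i/L/b.

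Same-numbered libraries of the groups compared did not deviate together, with correlations of deviations between -0.13 and 0.06, so no pairing by number was detected. In comparisons with primed cells the J and K libraries of a number were averaged, and so few libraries cannot exclude a pairing. With the replicate block, genes called numbered 9 in E-NHSM, 37 in NHSM-v, 37 in 4i/L/b, 19 in TL2i, 29 in t2iLGöY, 23 in LCDM (EPS), and 24 in TL-CDK8/19i cells against primed cells, 21 for TL-CDK8/19i against TL2i and 33 for NHSM-v against E-NHSM.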
